A study of Homo sapiens with 23 samples.

Results

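The mRNAs of 54 ribosome biogenesis genes were followed through all 9 groups of 23 RNA sequencing libraries from SUDHL5, an established line grown from a human lymphoma (diffuse large B-cell, germinal centre kind). The members were taken by name from a list of assembly factors, small nucleolar RNA (snoRNA) partners and RNA polymerase I factors. All 54 were among the 17743 genes that passed the filter on low counts. CDK-TCIP1 is a bivalent compound with an end that binds the transcriptional repressor BCL6 and an end that binds the elongation kinase CDK9. Cells received it at 30 nM for 4 h in 3 libraries. At 2 h there were 2 libraries with 10 nM, 4 with 30 nM and 3 with 100 nM. The comparison compounds Neg1 and Neg2, which the labels describe by name alone, were used at 30 nM, with a pair of libraries per compound and time (2 h or 4 h). The vehicle, 0.1% DMSO, is shared by every group, and its own 3 libraries were all taken at 4 h. Setting a 2 h group against them therefore mixes compound with time. Whether replicates came from separate cultures is not in the labels, so p-values measure only the spread between libraries, which may be technical.

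Ribosomes are assembled in the nucleolus on RNA made by RNA polymerase I. The long precursor is bound as it is made by the small subunit (SSU) processome, a very large particle built around the U3 snoRNA, and is cut, folded and chemically modified before the precursors of the 40S and 60S subunits part and are exported. Small nucleolar ribonucleoproteins (snoRNPs) place the modifications. The genes of this pathway are well known targets of the transcription factor MYC, and fast-dividing cells such as those of B-cell lymphomas depend on a high output of ribosomes.

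Levels are given as CPM, estimated counts scaled to a common library size after adjustment by the trimmed mean of M values, and fold changes as log2 ± their standard error. A gene is said to have risen or fallen where edgeR's quasi-likelihood test gave a p under 0.05 after Benjamini-Hochberg adjustment over all genes tested. Fold changes are relative to the bulk of mRNAs, so a loss of all mRNA together would not be seen, and fewer cells cannot be told apart from less RNA per cell. Library totals ran from 17396484 to 26373153 estimated counts. The members made up 0.930% to 1.07% of the counts in the 10 libraries with 30 or 100 nM CDK-TCIP1 and 1.09% to 1.16% in the other 13. The mitochondrial share of counts was mostly higher in the 10 libraries, at 6.59% to 7.87% there and 5.51% to 6.72% in the other 13, and its part in the results was not tested. Replicate 1 of 100 nM CDK-TCIP1 and replicate 1 of Neg2 at 2 h stood apart from their partners, where the chi-square statistic between replicates, divided by its degrees of freedom, reached 14.2 and 13.5. Summed markers of B cells ran from 1816 to 1993 CPM after 30 nM CDK-TCIP1 for 4 h and from 2200 to 2297 CPM in DMSO. Markers of T and NK cells summed to at most 3.66 CPM in any library, and the T cell gene CD2 and the haemoglobin gene HBB were at 0 in every library.

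After 4 h at 30 nM, CDK-TCIP1 lowered 35 of the 54 mRNAs against DMSO and raised 2, while 19.3% and 17.5% of all genes tested fell and rose. The median log2 fold change was -0.24 over the members and 0.034 over all genes. In 37 members every CDK-TCIP1 library lay below every DMSO library, which was so for 24.1% of all genes, and in 3 members every library lay above, which was so for 24.5%. The summed level of the 54 mRNAs was 9449 ± 242 CPM after CDK-TCIP1 and 11145 ± 145 CPM in DMSO (SD, n = 3 each). Most falls were modest. UTP18 was the 1 member with a log2 fold change below -1.

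**Figure D1:**
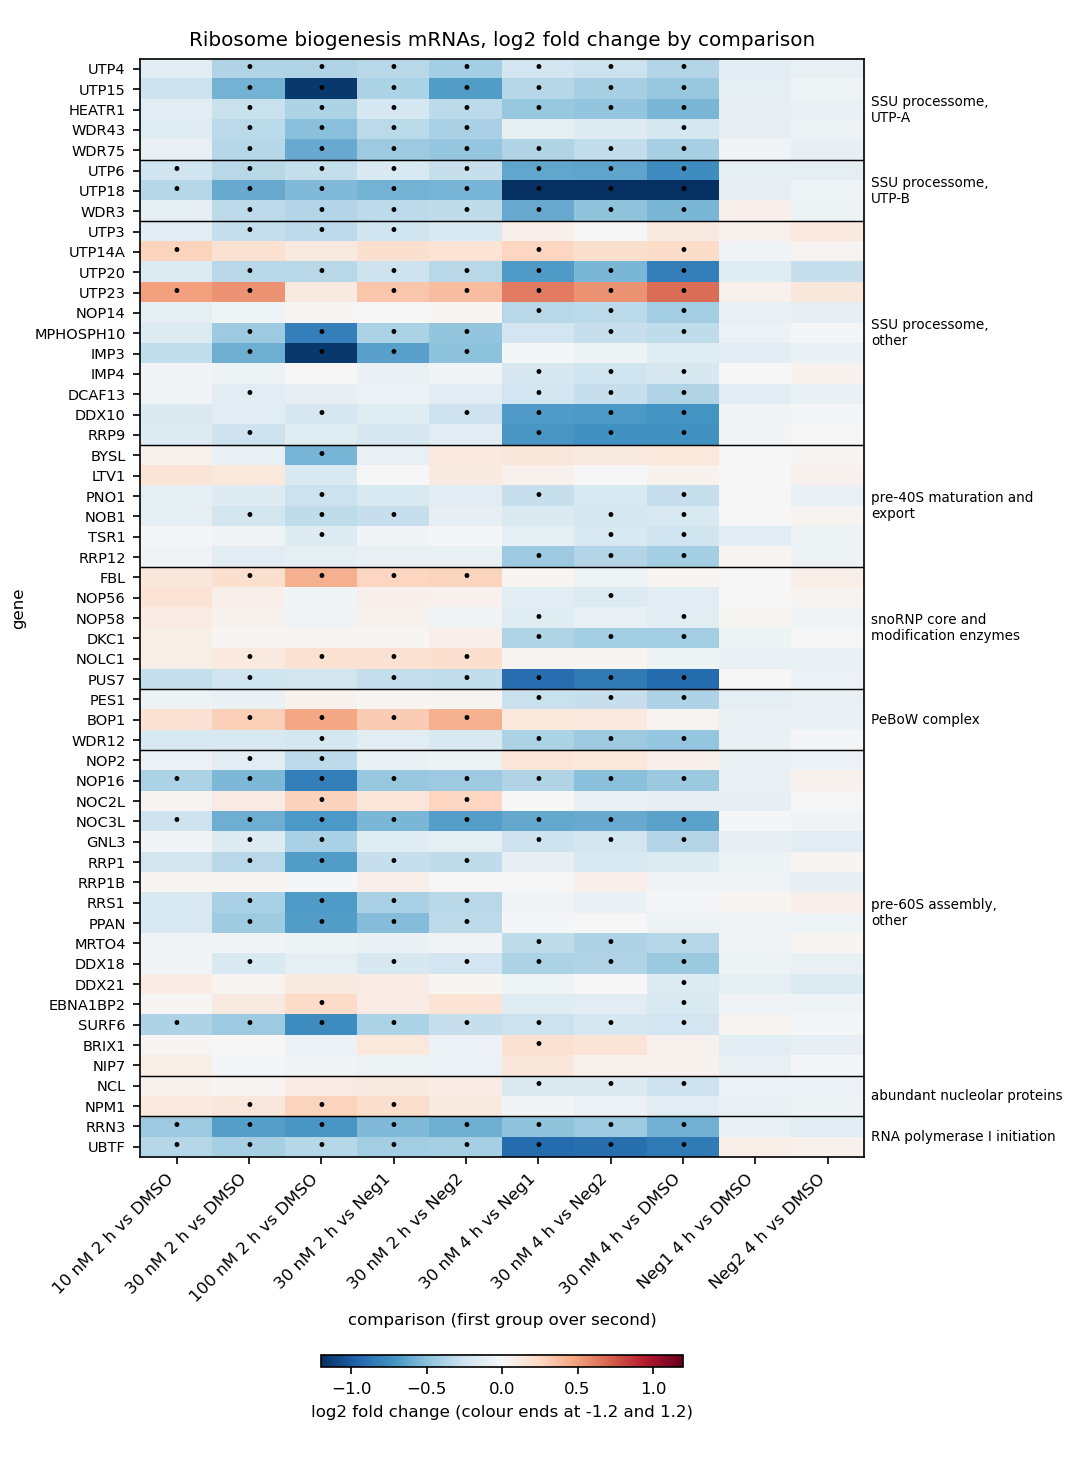
Log2 fold change of each of the 54 mRNAs (rows, grouped by role) in 10 comparisons (columns, first group over second), blue for lower and red for higher, with a dot where the adjusted p was under 0.05. The rows of the UTP-A and UTP-B members are blue at both times, the red of FBL and BOP1 appears at 2 h, and the columns of Neg1 and Neg2 against DMSO hold no dot.

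Among the members of the small subunit processome, those of the UTP-A and UTP-B subcomplexes fell at 4 h. Other subunits of both are not members and are counted with the rest of the pathway. The 5 UTP-A members, of a subcomplex that binds the precursor at its start, had a median log2 fold change of -0.40. HEATR1, the largest UTP-A protein, had 144, 143 and 142 CPM in the CDK-TCIP1 libraries and 203, 215 and 209 CPM in the DMSO libraries. The groups did not overlap, at -0.55 ± 0.067 (edgeR, adjusted p = 3.87e-07). UTP15 (-0.45), WDR75 (-0.40), UTP4 (-0.35) and WDR43 (-0.21) fell less. The 3 members from UTP-B, the next subcomplex to join, had a median of -0.75. UTP18, a UTP-B protein known in yeast to bring the RNA exosome helicase to the particle, had 43.6, 38.8 and 44.7 CPM after CDK-TCIP1 and 112, 103 and 108 CPM in DMSO. No member fell further, at -1.34 ± 0.074 (edgeR, adjusted p = 4.13e-13). UTP6, its partner, had 65.4, 64.8 and 68.6 CPM after CDK-TCIP1 and 106, 112 and 116 CPM in DMSO. It fell, with a change of -0.75 ± 0.062, without overlap, although 73.6% to 85.4% of its counts, as group means, belong to transcripts annotated as retaining an intron. That share was 85.4% after CDK-TCIP1 and 77.8% in DMSO, so the make-up of its counts differed between the groups compared. WDR3, the third UTP-B member, fell, with a change of -0.55 ± 0.062.

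Of the 11 other processome genes, 7 fell and 2 rose. UTP20, a very long helical repeat protein that wraps the maturing particle, had 78.5, 74.9 and 84.6 CPM after CDK-TCIP1 and 137, 141 and 142 CPM in DMSO, a change of -0.82 ± 0.082. RRP9, which binds the U3 snoRNA itself, had 25.3, 29.7 and 28.5 CPM after CDK-TCIP1 and 46.4, 45.2 and 46.6 CPM in DMSO, a change of -0.73 ± 0.083. Neither gene's libraries overlapped between the groups. The helicase DDX10 fell by a similar amount (-0.71 ± 0.073). NOP14 (-0.42), DCAF13 (-0.36), MPHOSPH10 (-0.30) and IMP4 (-0.19) fell less, and IMP3 (-0.14) and UTP3 (0.11) were not called. Among members called against DMSO at 4 h, IMP4 alone turned with the counting. It changed to 0.21 with length-scaled counts and 0.047 with protein-coding transcripts only, neither past the threshold. Turns among members not called are not given. UTP23, needed in yeast to release a snoRNA from the particle, went against the rest with 72.4, 75.7 and 72.0 CPM after CDK-TCIP1 and 42.4, 50.2 and 45.7 CPM in DMSO. It rose by 0.67 ± 0.083 (edgeR, adjusted p = 4.94e-07), but EIF3H and RAD21 overlap it on the opposite strand and the strand setting is not given in the sources used here. UTP14A, whose yeast counterpart activates the helicase Dhr1, had 80.3, 74.2 and 81.5 CPM after CDK-TCIP1 and 68.6, 62.4 and 71.0 CPM in DMSO. Its small rise (0.22 ± 0.080, edgeR, adjusted p = 0.0295) was lost when any 1 of 4 of the 6 libraries was left out, and its reads can be shared with the near-identical UTP14C.

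Both RNA polymerase I factors on the list fell. UBTF, the HMG-box protein that holds ribosomal DNA open, had 224, 225 and 209 CPM after CDK-TCIP1 and 396, 399 and 389 CPM in DMSO. The change was -0.85 ± 0.052 (edgeR, adjusted p = 2.54e-12), with a wide gap between the groups. RRN3, which carries the polymerase to its promoter, had 79.1, 78.3 and 87.3 CPM after CDK-TCIP1 and 122, 124 and 118 CPM in DMSO. It fell, with a change of -0.57 ± 0.058, without overlap. The human genome holds pseudogene copies of RRN3, so its level is less certain than its neighbours'.

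Of the 6 genes of snoRNPs and RNA modification, 3 fell (DKC1, PUS7 and NOP58) and none rose. DKC1, the pseudouridine synthase of the box H/ACA snoRNPs, had 179, 184 and 193 CPM after CDK-TCIP1 and 242, 248 and 253 CPM in DMSO. It fell, with a change of -0.42 ± 0.044, with no overlap (edgeR, adjusted p = 4.06e-08). PUS7, a pseudouridine synthase that works without a guide RNA and is no part of a snoRNP, had 18.1, 21.5 and 26.6 CPM after CDK-TCIP1 and 43.0, 45.7 and 36.6 CPM in DMSO, the second largest fall among the members at -0.92 ± 0.10. The box C/D core genes had smaller fold changes. FBL, the methyltransferase fibrillarin, had 247, 257 and 266 CPM after CDK-TCIP1 and 255, 249 and 252 CPM in DMSO, overlapping ranges with a fold change of 0.027 ± 0.061 and a 95% interval of -0.10 to 0.15. NOP56, its scaffold, had 257, 268 and 279 CPM after CDK-TCIP1 and 287, 288 and 303 CPM in DMSO. The NOP56 libraries did not overlap, but the change of -0.13 ± 0.055 did not pass the threshold (edgeR, adjusted p = 0.074). NOP58 fell, with a change of -0.13 ± 0.044, a call that 4 of 14 alternative analyses removed, 1 of them without replicate 3 of CDK-TCIP1, and NOLC1 (-0.057) was not called.

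In the PeBoW complex, whose 3 proteins act together in making the 60S precursor, PES1 and WDR12 fell and BOP1 did not. PES1 had 144, 139 and 147 CPM after CDK-TCIP1 and 192, 186 and 179.5 CPM in DMSO (-0.37 ± 0.058). WDR12 had 49.8, 41.6 and 49.8 CPM after CDK-TCIP1 and 61.4, 68.0 and 65.4 CPM in DMSO (-0.46 ± 0.080). BOP1 had 115, 136 and 124 CPM after CDK-TCIP1 and 128, 113 and 125 CPM in DMSO, and its ranges overlapped (0.036 ± 0.064, 95% interval -0.097 to 0.17). Of the 16 other 60S assembly genes, 8 fell and none rose at an adjusted p under 0.05, with NOC3L, a factor of early 60S precursors, lowest at -0.64 ± 0.069. DDX18 (-0.45), NOP16 (-0.45), MRTO4 (-0.35), GNL3 (-0.35), SURF6 (-0.23) and EBNA1BP2 (-0.18) followed, the last lost in 4 of 14 alternative analyses, including those without replicate 1 or 3 of CDK-TCIP1 or replicate 3 of DMSO. The helicase DDX21, among the 3 members with the most counts, had 589, 589 and 616 CPM after CDK-TCIP1 and 649, 671 and 689 CPM in DMSO, a small fall of -0.16 ± 0.049 that was not called against Neg1 or Neg2. RRP1B, NIP7, BRIX1, RRS1, PPAN and NOP2 lay between -0.061 and 0.059, all short of the threshold, as were RRP1 (-0.16) and NOC2L (-0.095). Of the 6 genes of 40S maturation and export, RRP12 (-0.41), PNO1 (-0.28), TSR1 (-0.24) and the nuclease NOB1 (-0.18) fell, NOB1 with a call lost in 4 of 14 alternatives, including those without replicate 3 of CDK-TCIP1 or replicate 1 or 3 of DMSO, while BYSL (0.12) and LTV1 (0.047) were not called.

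Of the abundant nucleolar proteins, NCL fell and NPM1 did not pass the test. Per transcript length, NPM1 and NCL had the highest levels of the members in DMSO, at 1818 and 1002 TPM, the deposited abundance scaled for length and depth, against a median of 73.7 TPM over the 54 and 19.3 TPM for UTP20, the lowest. Nucleolin, the product of NCL, binds the precursor RNA, and its mRNA had 1327, 1399.5 and 1425 CPM after CDK-TCIP1 and 1643, 1638 and 1645 CPM in DMSO. It fell, with a change of -0.25 ± 0.045, without overlap. Nucleophosmin, the product of NPM1, carries assembly factors, and its mRNA had 1415, 1471 and 1611 CPM after CDK-TCIP1 and 1599, 1582 and 1725 CPM in DMSO. Those ranges overlapped (-0.13 ± 0.055, edgeR, adjusted p = 0.0788), and NPM1 has many pseudogene copies. Without NCL and NPM1 the members summed to 6566 ± 94.6 CPM after CDK-TCIP1 and 7868 ± 70.2 CPM in DMSO (SD, n = 3 each).

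Neg1 and Neg2 were compared with DMSO at 4 h alone. At that time no member was called in Neg1 or in Neg2 against DMSO by edgeR, nor in Neg1 against Neg2 at 2 h or at 4 h, and 0% of all genes tested were called in each. Unadjusted p-values under 0.05 were found for 1, 3, 3 and 0 members. The 95% intervals of the 54 log2 fold changes stayed between -0.34 and 0.25 for Neg1 and between -0.46 and 0.33 for Neg2. DESeq2 called no member in these 4 comparisons either, and edgeR fitted to only the groups compared called 1 member lower in Neg2 than in DMSO. Against DMSO, 43 of the 54 fold changes were negative in Neg1 and 40 in Neg2, with medians of -0.064 and -0.053. The medians over all genes were -0.00012 and -0.0031, and their share of negative values was not computed. The 54 mRNAs summed to 10676 ± 261 CPM in Neg1 and 10742 ± 365 CPM in Neg2 at 4 h (SD, n = 2 each). That lies between the 9449 CPM of CDK-TCIP1 and the 11145 CPM of DMSO. At the same dose and time CDK-TCIP1 lowered 29 members and raised 3 against Neg1 at 4 h, where 16.9% and 14.2% of all genes fell and rose. With length-scaled counts these were 18 and 1, and the 3 rises became 1 without replicate 1 of Neg1 or without replicate 1 or 3 of CDK-TCIP1. Against Neg2 it lowered 31 and raised 1, where 16.8% and 14.4% fell and rose. UTP18 had 102 and 99.3 CPM in Neg1 and 99.6 and 108 CPM in Neg2, far above every CDK-TCIP1 library of that time. UBTF had 419 and 414 CPM in Neg1 and 413 and 407 CPM in Neg2, again with no overlap. The comparisons of CDK-TCIP1 with Neg1, Neg2 and DMSO share the CDK-TCIP1 libraries.

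**Figure D2:**
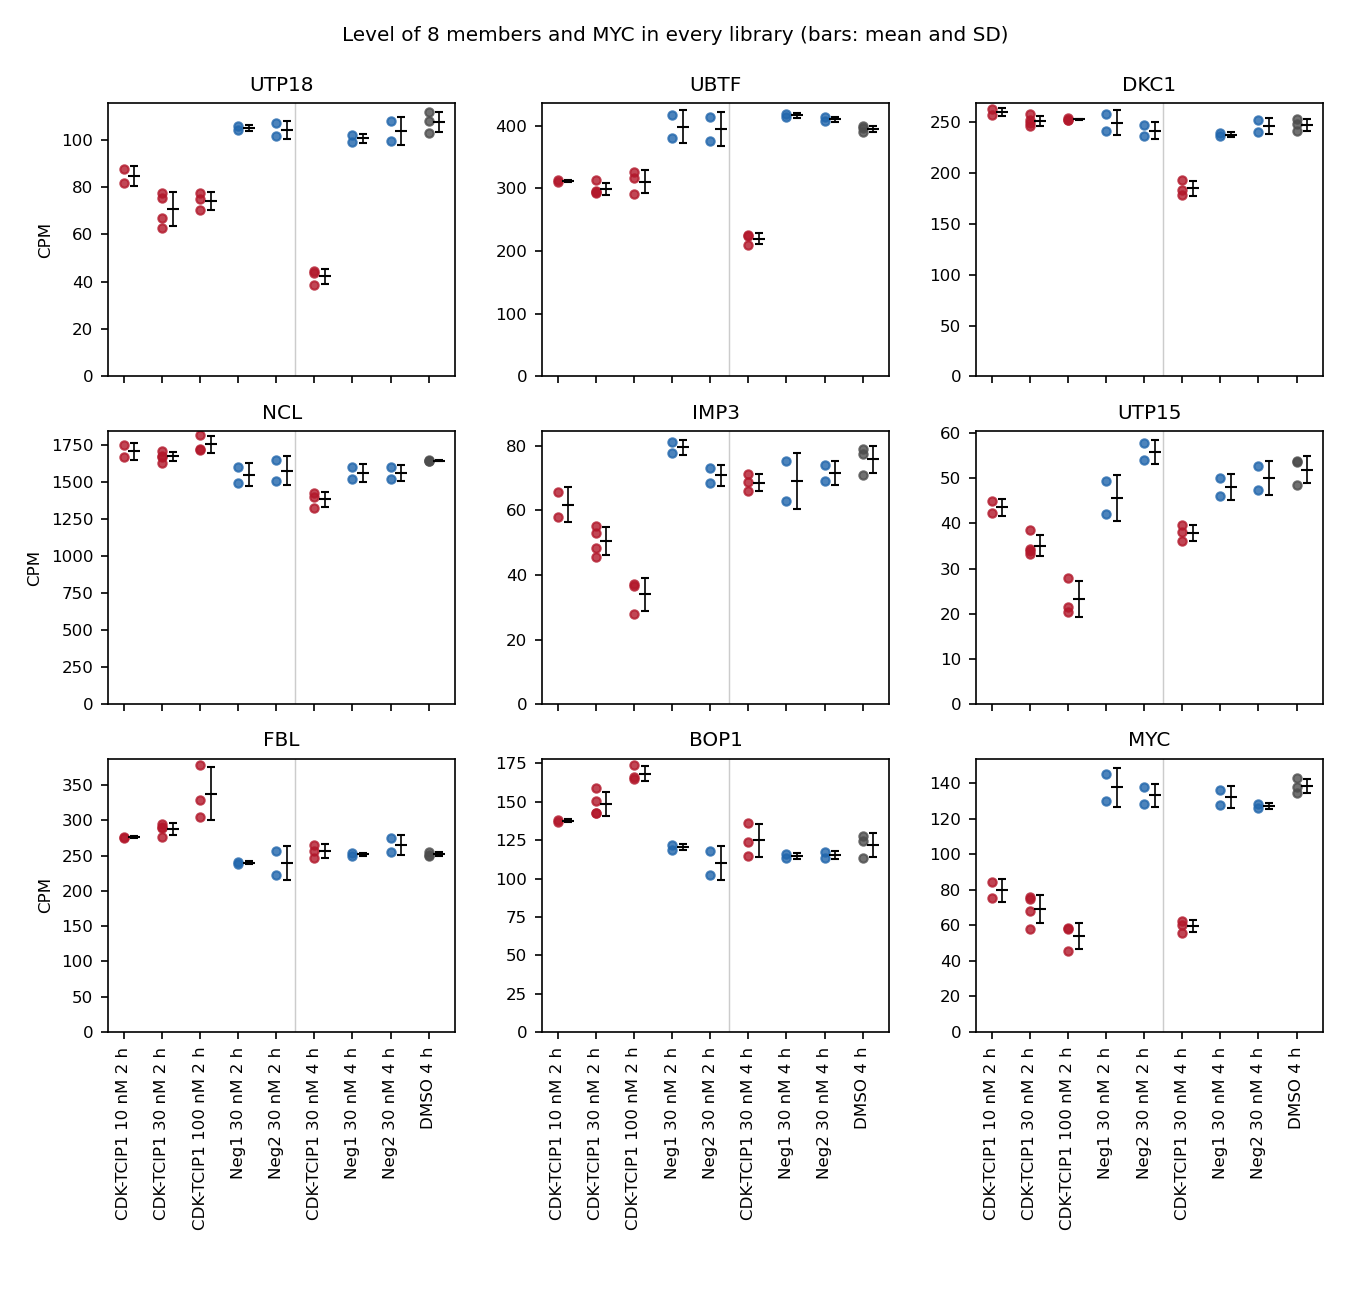
CPM of 8 members and of MYC in each of the 23 libraries (points), by group, with the mean and SD beside each group: CDK-TCIP1 in red, Neg1 and Neg2 in blue, DMSO in grey, with a line between 2 h and 4 h. UTP18, UBTF, DKC1 and NCL are lowest after 30 nM for 4 h, IMP3 and UTP15 after 100 nM for 2 h, and FBL and BOP1 are highest after 100 nM for 2 h.

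After 2 h at 30 nM CDK-TCIP1 lowered 23 members and raised 5 against Neg1, where 14.2% and 13.6% of all genes fell and rose. Against Neg2 it lowered 22 and raised 5, where 15.7% and 14.8% fell and rose. These counts depended on single control libraries. Without replicate 2 of Neg1, 11 were lower against it, without replicate 1 of Neg1 the rises were 2, and without replicate 1 of Neg2, which stood apart, the rises were 1. With length-scaled counts 14 fell and 2 rose against Neg1, and with protein-coding transcripts only 8 rose against Neg2. The 5 UTP-A members, the 3 UTP-B members and both polymerase I factors fell against both compounds, with UTP6 turning to 0.080 against Neg1 (edgeR, adjusted p = 0.609) with length-scaled counts. IMP3, a U3 snoRNP protein, had 45.7, 53.1, 55.2 and 48.4 CPM after CDK-TCIP1, 81.2 and 77.8 CPM in Neg1 and 73.2 and 68.7 CPM in Neg2, a change of -0.65 ± 0.094 against Neg1. UTP15, a UTP-A protein, had 34.4, 34.0, 38.4 and 33.3 CPM after CDK-TCIP1, 42.1 and 49.3 CPM in Neg1 and 57.7 and 53.9 CPM in Neg2, a change of -0.67 ± 0.095 against Neg2. NOC3L had 53.5, 57.6, 59.2 and 53.9 CPM after CDK-TCIP1, 80.7 and 83.6 CPM in Neg1 and 93.3 and 83.9 CPM in Neg2, -0.55 and -0.66 against the compounds. In all 3 genes every CDK-TCIP1 library lay below every control library. RRN3 had 78.1, 72.5, 77.0 and 80.1 CPM after CDK-TCIP1, 106 and 116 CPM in Neg1 and 121 and 110.0 CPM in Neg2, also without overlap. UTP18 had already fallen, with 62.6, 67.1, 75.6 and 77.6 CPM after CDK-TCIP1, 106 and 104 CPM in Neg1 and 102 and 107 CPM in Neg2.

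Members that rose against both compounds at 2 h were FBL, BOP1, NOLC1 and UTP23. NOP56 and NOP58, which act with FBL, and PES1 and WDR12, which act with BOP1, were not called. FBL had 291, 289, 276 and 295 CPM after CDK-TCIP1, 242 and 238 CPM in Neg1 and 223 and 256 CPM in Neg2, and rose by 0.26 ± 0.066 against Neg1. BOP1 had 142, 150.4, 142 and 159 CPM after CDK-TCIP1, 119 and 122 CPM in Neg1 and 102 and 118 CPM in Neg2, and rose by 0.43 ± 0.069 against Neg2. Both genes lay above every control library of that time. NOLC1, a chaperone of snoRNPs, had fold changes of 0.18 against Neg1 and 0.20 against Neg2. Those of UTP23 were 0.33 and 0.37, the second turning to -0.0067 with length-scaled counts. UTP23 had 68.3, 66.0, 66.2 and 67.5 CPM after CDK-TCIP1, 50.6 and 55.9 CPM in Neg1 and 49.8 and 54.1 CPM in Neg2. NPM1 rose against Neg1 (0.21; 0.10 against Neg2, not called) and NOC2L against Neg2 (0.25; 0.15 against Neg1, not called).

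The 3 doses at 2 h were compared with DMSO through 2, 4 and 3 libraries, so counts of calls at different doses come from tests of different power, and calls over all genes differed too. Against DMSO, 10 nM lowered 7 members and raised 2 where 7.12% and 5.93% of all genes fell and rose, with 4 lowered if either 10 nM library was left out and 1 raised if any 1 of the 5 libraries was. With length-scaled counts 4 fell and none rose. At 30 nM, 27 fell and 5 rose where 17.6% and 16.7% of genes did (2 rose without replicate 2 of DMSO, and 3 without its replicate 1 or replicate 2 or 3 of 30 nM), and at 100 nM, 28 fell and 6 rose where 22.0% and 20.6% did. The mean level fell at each dose step in 30 members, rose at each step in 8 and did neither in 16, a description of means with no test. The share of all genes in each order was not computed, so these counts have no background beside them. UTP15 had 44.9 and 42.3 CPM at 10 nM, 34.4, 34.0, 38.4 and 33.3 CPM at 30 nM and 20.5, 21.4 and 27.8 CPM at 100 nM. IMP3 had 65.6 and 58.0 CPM at 10 nM, 45.7, 53.1, 55.2 and 48.4 CPM at 30 nM and 28.01, 37.3 and 36.7 CPM at 100 nM. In both genes the 3 doses did not overlap, and 100 nM lay far below DMSO (-1.16 ± 0.096 and -1.16 ± 0.094). MPHOSPH10, which binds IMP3 in the processome, reached -0.82 against DMSO, NOP16 -0.82 and SURF6 -0.75. FBL had a higher mean at each dose, with 277 and 275 CPM at 10 nM, 291, 289, 276 and 295 CPM at 30 nM and 379, 329 and 305 CPM at 100 nM, the last 0.42 ± 0.061 above DMSO. BOP1 had 137 and 138 CPM at 10 nM, 142, 150.4, 142 and 159 CPM at 30 nM and 174, 165 and 166 CPM at 100 nM (0.47 ± 0.064 against DMSO).

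The single steps of dose changed fewer members. From 10 to 30 nM only NOC3L was called, at -0.34 ± 0.073, where 1.82% of all genes fell and 0.800% rose. It had 68.2 and 73.7 CPM at 10 nM, 53.5, 57.6, 59.2 and 53.9 CPM at 30 nM and 51.6, 49.5 and 55.4 CPM at 100 nM. Without replicate 2 of 10 nM no member was called, without replicate 3 or 4 of 30 nM 2 were, and DESeq2 called 6. From 30 to 100 nM, 13 members fell and 3 rose where 8.45% and 4.44% of genes did. UTP15 (-0.59 ± 0.092), IMP3 (-0.57 ± 0.090) and BYSL (-0.47 ± 0.087) fell furthest, and FBL (0.23), BOP1 (0.18) and NOC2L (0.18) rose. BYSL, a factor of 40S maturation, had 59.2 and 62.8 CPM at 10 nM, 59.2, 54.6, 50.6 and 57.2 CPM at 30 nM and 32.7, 44.7 and 42.6 CPM at 100 nM. The 100 nM libraries lay below those of both other doses, while 10 and 30 nM nearly met. NOC2L had 169 and 168 CPM at 10 nM, 186, 178, 166 and 178 CPM at 30 nM and 204, 206 and 189.8 CPM at 100 nM. Without replicate 1 of 100 nM, the library that stood apart, 6 members fell and none rose, and without replicate 2 of 100 nM or replicate 2 or 3 of 30 nM 1 rose. With length-scaled counts 6 fell and 1 rose. UTP23 fell, with a change of -0.43 ± 0.080, at this step, with 41.1, 50.9 and 56.9 CPM at 100 nM and 68.3, 66.0, 66.2 and 67.5 CPM at 30 nM. UTP18 (0.072) and UBTF (0.058) were not called at this step, with 75.2, 70.1 and 77.5 CPM and 316, 326 and 290.3 CPM at 100 nM against 62.6, 67.1, 75.6 and 77.6 CPM and 313, 292, 295 and 295 CPM at 30 nM.

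Between 2 h and 4 h at 30 nM, 30 members fell and 6 rose, where 11.6% and 10.3% of all genes did. The 6 members of snoRNPs and RNA modification, the 3 PeBoW members, the 3 UTP-B members and both NCL and NPM1 fell, while of the 5 UTP-A members HEATR1 alone did. The 6 that rose were IMP3, UTP3, RRS1, PPAN, SURF6 and NOP2. In the mean of Neg1 and Neg2 no member was called at 4 h against 2 h by edgeR or DESeq2, and 0% of all genes were by edgeR, with 6 members at an unadjusted p under 0.05. The difference over time was tested as the effect of CDK-TCIP1 against that mean at 4 h less the same effect at 2 h. By that test 17 members had a lower effect at 4 h and 4 a higher one, where 6.37% and 5.61% of genes did. With single libraries left out in turn these counts ran from 12 to 21 and from 1 to 5, and length-scaled counts gave 9 and 2. The 4 became 1 or 2 without any 1 of the 4 h libraries other than replicate 2 of CDK-TCIP1, and also without replicate 1, 2 or 3 of CDK-TCIP1 at 2 h, either Neg1 library at 2 h or replicate 2 of Neg2 at 2 h.

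UTP18 fell further with time, with 43.6, 38.8 and 44.7 CPM at 4 h and 62.6, 67.1, 75.6 and 77.6 CPM at 2 h, and its effect differed by -0.70 ± 0.093 (edgeR, adjusted p = 1.92e-05). PUS7 had 18.1, 21.5 and 26.6 CPM at 4 h and 33.8, 35.7, 36.4 and 35.7 CPM at 2 h, a difference in effect of -0.59 ± 0.13. RRP9 had 25.3, 29.7 and 28.5 CPM at 4 h and 37.8, 39.2, 36.8 and 41.5 CPM at 2 h, a difference of -0.54 ± 0.11. All 3 genes were lower at 4 h than in any CDK-TCIP1 library at 2 h. DKC1 was at 179, 184 and 193 CPM at 4 h and 246, 249.9, 252 and 258 CPM at 2 h, where it did not differ from either control compound past the threshold (0.011 and 0.057). IMP3 moved the other way, with 66.0, 71.2 and 68.7 CPM at 4 h and 45.7, 53.1, 55.2 and 48.4 CPM at 2 h, a difference in effect of 0.54 ± 0.11. Its 4 h libraries overlapped those of DMSO at 79.0, 71.0 and 77.5 CPM. PPAN, a 60S assembly factor, had 79.5, 88.5 and 69.2 CPM at 4 h and 65.3, 61.7, 56.6 and 61.0 CPM at 2 h (0.40 ± 0.13), with reads that can be shared with the read-through gene PPAN-P2RY11. WDR43, a UTP-A protein, had 159, 150.4 and 155 CPM at 4 h and 141, 139.8, 144 and 147 CPM at 2 h (0.22 ± 0.070).

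Taking the calls at both times, 15 members were lower against both compounds at 2 h and against all 3 controls at 4 h. They were UTP4, UTP15, HEATR1, WDR75, UTP6, UTP18, WDR3, UTP20, PUS7, NOP16, NOC3L, DDX18, SURF6, RRN3 and UBTF. With length-scaled counts UTP15 turned to 0.053 against Neg1 at 4 h and UTP6 to 0.080 against Neg1 at 2 h. Another 12 met the 4 h rule and not the 2 h rule (NOP14, IMP4, DCAF13, DDX10, RRP9, RRP12, DKC1, PES1, WDR12, GNL3, MRTO4 and NCL). For 6 the reverse held (WDR43, MPHOSPH10, IMP3, RRP1, RRS1 and PPAN). Of the 12, IMP4 turned positive against all 3 controls with length-scaled counts and with protein-coding transcripts only, each time short of the threshold. FBL, BOP1 and NOLC1 were higher at 2 h alone, UTP23 was higher at both times, and 17 met neither rule. Meeting a rule at 1 time and not at the other is no test of a difference, which is given by the 17 and 4 above. The share of all genes tested that met these combined rules was not computed. How unusual the counts are is therefore not known.

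**Figure D3:**
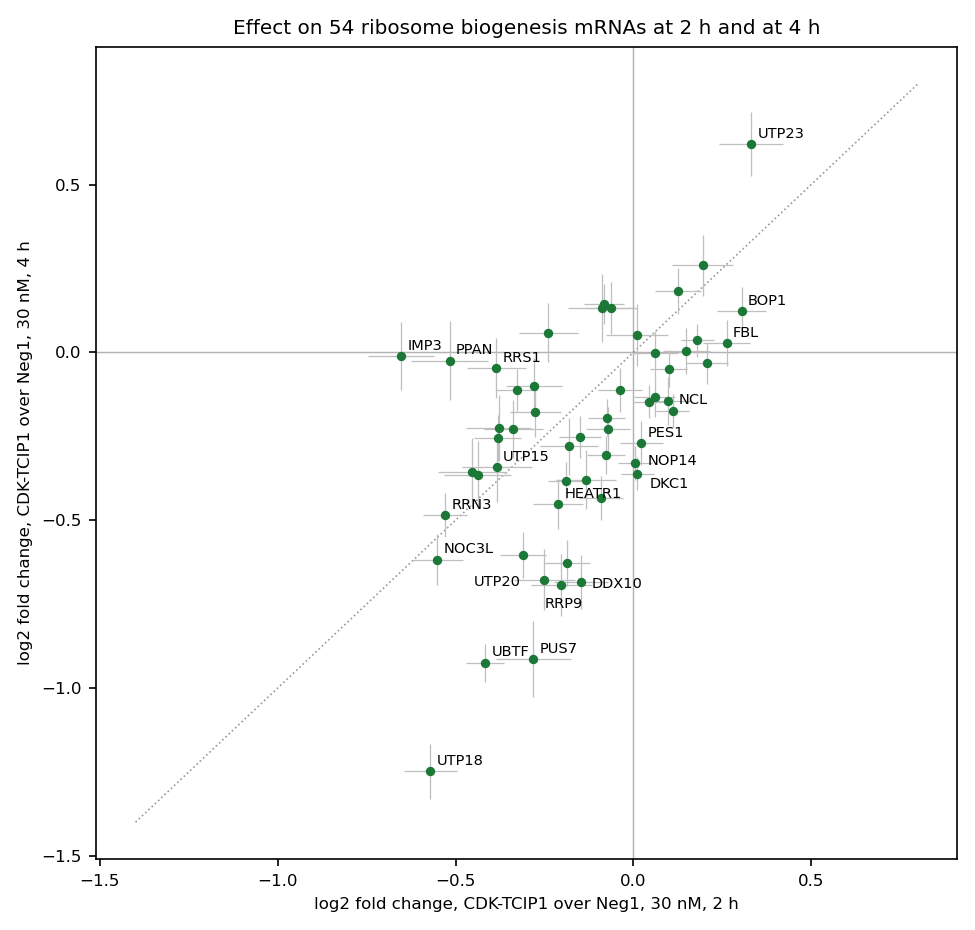
Log2 fold change of CDK-TCIP1 over Neg1 at 30 nM at 2 h (horizontal axis) and 4 h (vertical axis) for the 54 mRNAs, with standard errors and a dotted line of equal effect. UTP18, PUS7, UBTF and RRP9 lie below the line, IMP3, PPAN and RRS1 lie above it near no change at 4 h, and FBL and BOP1 lie right of 0.

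MYC, given here as context, fell at every dose and time of CDK-TCIP1. It had 75.3 and 84.3 CPM at 10 nM, 58.3, 74.7, 76.0 and 68.0 CPM at 30 nM and 45.9, 58.2 and 58.7 CPM at 100 nM for 2 h, and 55.8, 62.4 and 60.2 CPM at 30 nM for 4 h. DMSO had 138, 135 and 143 CPM, Neg1 130.0 and 146 CPM at 2 h and 128 and 137 CPM at 4 h, and Neg2 129 and 138 CPM at 2 h and 126 and 128 CPM at 4 h. No CDK-TCIP1 library reached any of these levels, and the change was -1.22 ± 0.088 against DMSO at 4 h. The mean of MYC was lowest at 100 nM for 2 h, with libraries that overlapped those of 30 nM for 4 h. At 100 nM the members summed to 10960 ± 135 CPM (SD, n = 3), and the sum was lowest at 30 nM for 4 h, at 9449 CPM. Without NCL and NPM1 the sum was 7313 CPM at 30 nM and 7243 CPM at 100 nM for 2 h, and again lowest at 30 nM for 4 h, at 6566 CPM. The groups at 100 nM for 2 h and 30 nM for 4 h differ in both dose and time. Any relation of MYC to the members was not tested.

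The sequence that MYC and its partner MAX bind best is CACGTG, the canonical E-box. RefSeq promoters (GRCh38.p14, 250 bases before to 50 after the start) were matched for 44 of the 54 members. UTP23, BOP1 and NOLC1, which rose at 2 h, are among those without a match. CACGTG, which reads the same on both strands, was found in 19 of the 44 (43.2%), in 9.96% of the 11461 promoters of genes tested and in 7.43% of all 27305 in the table. The looser CANNTG, which includes it, was found in 75% of members' promoters and 61.6% of those of genes tested. Within the members, the 19 with CACGTG had a median log2 fold change of -0.28 at 30 nM for 4 h against DMSO, 14 of them lower, and the 25 without it had -0.25, 16 of them lower. Over all genes with a promoter, 26.1% of those with the word and 22.9% of those without it fell. At 30 nM for 2 h against Neg1, the members with it had a median of -0.089, 7 of them lower. Those without it had -0.19, 13 of them lower. Over all genes 18% with it and 17% without it fell there. Against Neg2 at 2 h the members' medians were -0.061 with it and -0.19 without it. At 100 nM for 2 h against DMSO they were -0.22 and -0.30. The promoters shown are those of 3 members with the word that fell far, of FBL, which has it and did not fall, and of UBTF, which fell without it, all in 5′ to 3′ order on the gene's strand with each CACGTG in capitals. UTP18 (chr17:51260296-51260595, plus strand) has the word 89 bases before the start and 5 after it, UTP20 (chr12:101279855-101280154, plus) 10 before, PUS7 (chr7:105522222-105522521, minus) 29 after and FBL (chr19:39846330-39846629, minus) 7 after. UBTF lies at chr17:44220833-44221132, minus.
UTP18: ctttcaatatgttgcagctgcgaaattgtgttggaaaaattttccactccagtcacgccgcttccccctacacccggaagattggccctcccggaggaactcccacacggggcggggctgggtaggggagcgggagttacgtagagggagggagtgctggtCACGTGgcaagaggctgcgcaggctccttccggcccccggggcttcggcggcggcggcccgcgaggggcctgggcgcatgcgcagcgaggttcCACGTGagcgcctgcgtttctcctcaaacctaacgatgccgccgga
UTP20: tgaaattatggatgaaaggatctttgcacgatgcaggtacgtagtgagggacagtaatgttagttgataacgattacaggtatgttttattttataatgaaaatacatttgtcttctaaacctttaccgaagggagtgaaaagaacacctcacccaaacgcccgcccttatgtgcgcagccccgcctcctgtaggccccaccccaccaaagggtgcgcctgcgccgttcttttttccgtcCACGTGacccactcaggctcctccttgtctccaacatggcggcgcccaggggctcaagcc
PUS7: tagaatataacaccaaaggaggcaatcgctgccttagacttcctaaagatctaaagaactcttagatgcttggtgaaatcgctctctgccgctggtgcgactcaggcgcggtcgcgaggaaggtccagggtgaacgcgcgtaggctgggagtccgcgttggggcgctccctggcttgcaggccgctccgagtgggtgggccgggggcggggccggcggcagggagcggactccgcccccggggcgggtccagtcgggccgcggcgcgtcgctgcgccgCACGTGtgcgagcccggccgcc
FBL: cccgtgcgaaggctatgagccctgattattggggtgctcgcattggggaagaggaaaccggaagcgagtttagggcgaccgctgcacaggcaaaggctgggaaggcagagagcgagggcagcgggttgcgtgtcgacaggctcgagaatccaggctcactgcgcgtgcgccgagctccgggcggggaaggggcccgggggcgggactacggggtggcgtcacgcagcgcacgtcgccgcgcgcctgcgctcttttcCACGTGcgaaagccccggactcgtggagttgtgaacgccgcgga
UBTF: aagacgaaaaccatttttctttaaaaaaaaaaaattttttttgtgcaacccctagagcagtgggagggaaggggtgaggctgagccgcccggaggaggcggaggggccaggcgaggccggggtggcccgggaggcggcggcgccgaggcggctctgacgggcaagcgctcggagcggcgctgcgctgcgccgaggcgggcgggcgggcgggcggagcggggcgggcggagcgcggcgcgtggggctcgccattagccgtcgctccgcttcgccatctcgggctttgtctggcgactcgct
A match is a description of letters, not of binding, and any part of the word in the falls was not tested.

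The members' fold changes were also set against the structure of their genes. The span of the main coding transcript correlated with the change between 2 h and 4 h at 30 nM across the 54 members (Spearman's rho -0.44) and less over 9453 well-expressed protein-coding genes (-0.11). Against DMSO at 4 h the values were -0.45 and -0.14. Across genes these points share libraries, so the values are descriptions with no test. Values of like size were seen where no member was called, at -0.40 for Neg2 against DMSO, -0.56 for Neg1 against Neg2 at 2 h and 0.40 for the same pair at 4 h. The value was also -0.42 for 4 h against 2 h in the mean of Neg1 and Neg2, although there the median over the 40 members of 10 kb or more was -0.036 and over the 14 shorter ones -0.0063. For CDK-TCIP1 at 4 h against 2 h those medians were -0.20 and 0.073. The 3 members with 1 exon, UTP3, IMP3 and RRS1, had a median of -0.68 at 100 nM for 2 h against DMSO and of -0.018 at 30 nM for 4 h. The 136 well-expressed genes with 1 exon had -0.60 and -0.030 in the same comparisons.

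**Figure D4:**
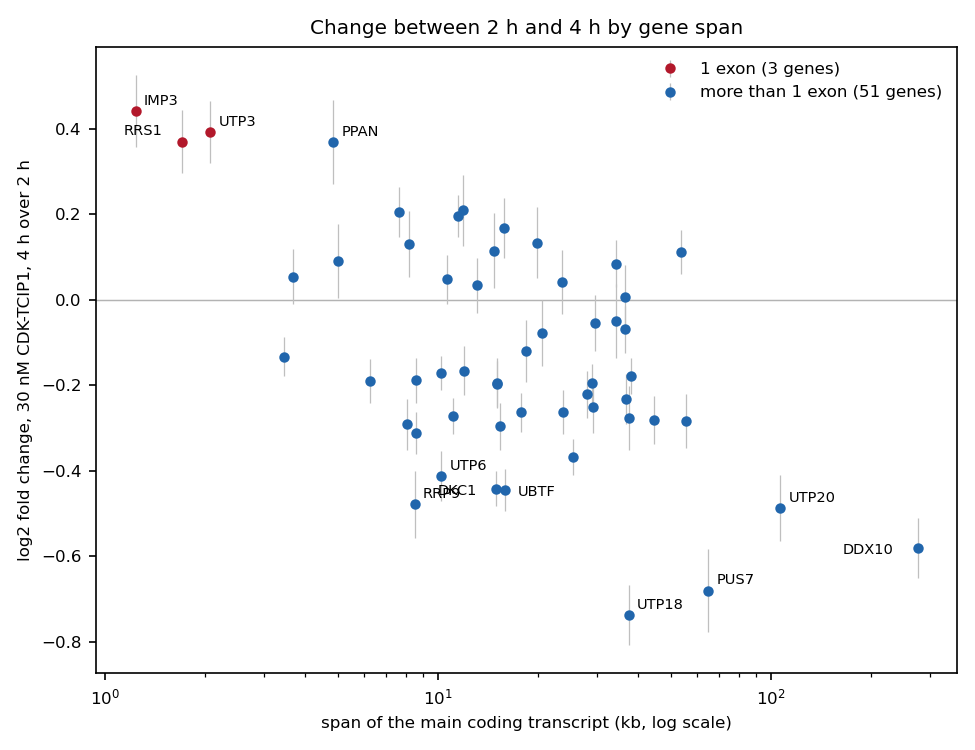
Log2 fold change of 30 nM CDK-TCIP1 at 4 h over 2 h (vertical axis, with standard error) against the span of the main coding transcript in kb (log axis) for the 54 mRNAs. The 3 genes with 1 exon, in red, and PPAN stand highest. UTP18, PUS7, DDX10 and UTP20, all of long span, and RRP9, with a span of 8512 bases, lie lowest.

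The members' introns also hold other genes and the files separate their transcripts by class. Of the 54, 8 carry snoRNA genes inside them (WDR43, TSR1, NOP56, NOP58, DKC1, GNL3, PPAN and NCL), and 6 of these 8 fell at 30 nM for 4 h against DMSO, as did 35 of all 54 members and 19.3% of all genes. Transcripts annotated as retaining an intron made up 3.92% ± 0.11 of the members' counts after CDK-TCIP1 and 4.28% ± 0.19 in DMSO (SD, n = 3 each). The 2-sided exact permutation p was 0.1, the smallest that 3 against 3 allows. Protein-coding transcripts made up 93.8% ± 0.083 after CDK-TCIP1 and 93.5% ± 0.25 in DMSO (exact permutation p = 0.3). These shares pool all members by their counts, so abundant members weigh most, and the part of single members was not computed. IMP4, an abundant member, had 17.02% of its counts in intron-retaining transcripts after CDK-TCIP1 and 27.36% in DMSO, as group means. UTP6 (85.37% and 77.78%) and PPAN (18.43% and 13.03%) were among those that moved against the pooled share. At 100 nM for 2 h the share of PPAN was 27.5%.

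The rest of the pathway, 104 genes listed from general knowledge with earlier results of these data known, was measured in the same libraries. At 30 nM for 4 h, 50 fell and 10 rose against DMSO, with a median log2 fold change of -0.15, where 19.3% of all genes fell and 17.5% rose. Of 26 other processome genes 13 fell, BMS1, the GTPase of the particle, to 76.0 ± 3.28 CPM after CDK-TCIP1 against 131 ± 0.315 CPM in DMSO, and AATF at -0.60. The helicase DHX37 rose by 0.28. Of 37 other 60S genes 22 fell and 5 rose, among them FTSJ3 at -1.12 and RPF2, which brings in the 5S particle, at -1.03, with NOC4L, listed there although its yeast counterpart acts on the small subunit, at 0.39 and NOP53 at 0.31. Of 12 H/ACA and assembly genes 6 fell, including SHQ1, the chaperone of dyskerin, at -0.78 and NUFIP1 at -0.64, while COIL rose by 0.24. Late cytoplasmic steps held 5 falls and 3 rises among 15, with DIMT1 at -0.81, RIOK1 at -0.64, ZNF622 at 0.42 and RIOK2 at 0.29. The RNA exosome held 4 falls among 14, MTREX, its nuclear helicase, at -0.58 and MPHOSPH6 at -0.35. In the list on the 5S particle and its checkpoint, which shares RRS1, RPF2 and BRIX1 with other lists, MDM2 rose by 0.62, and HEATR3, the import chaperone of the particle's proteins, fell by 2.30 on the log2 scale to 12.9 ± 0.946 CPM after CDK-TCIP1 against 63.6 ± 1.79 CPM in DMSO (SD, n = 3 each).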

How the data were processed

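The 23 libraries are paired-end sequencing of polyA-enriched RNA, per the labels' protocols. The authors deposited kallisto estimated counts and TPM per transcript for each library; FastQC, cutadapt, kallisto and DESeq2 are named per the submitters' processing notes, with versions and the strand setting not given in the sources used here. Estimated counts were summed per gene through GENCODE transcripts, rounded to whole numbers, filtered with filterByExpr (17743 genes kept) and scaled by the trimmed mean of M values. One edgeR 4.0.16 quasi-likelihood model in R 4.3.3 held all 9 groups (14 residual degrees of freedom), with Benjamini-Hochberg adjustment over all genes and a threshold of 0.05. TPM as deposited by the authors were summed per gene and used only to compare levels between genes. The fit was tested on simulated data.

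The members and lists were chosen with earlier results of these data known. Members given library by library were the lowest and highest fold changes against DMSO at 4 h, the most abundant, core genes of each role, and the extremes of the other comparisons. Library totals of 17396484 to 26373153 counts limit the precision of the least expressed members. Alternatives were other size factors, no filter, length-scaled counts, protein-coding transcripts only, a replicate block, DESeq2 1.42.0, only the groups compared and leaving out each library. Leaving out both libraries that stood apart was chosen after seeing the data.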

Additional observations from a re-analysis of the deposited data

Results flagged for a closer look

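In the 30 nM CDK-TCIP1 libraries at 2 h, UBTF had 312.7 CPM in replicate 1 and 291.8 to 295 CPM in the others, a gap that took up most of the group's range. It was the 1 case among 54 member and group pairs examined for a library far from the others, where chance gives about 1 in 20.

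With Neg1 and Neg2 averaged as the control, the effect of CDK-TCIP1 at 30 nM differed between 4 h and 2 h for 21 members by edgeR's test of that difference, adjusted over all genes. On the log2 scale, 4 h effect minus 2 h effect, it was -0.70 for UTP18, -0.59 for PUS7, -0.54 for RRP9, -0.51 for UBTF, -0.49 for DDX10, -0.42 for DKC1, -0.40 for UTP6 and -0.34 for NOP14. It was -0.32 for UTP20, -0.30 for RRP12, -0.30 for PES1, -0.28 for MRTO4, -0.27 for FBL, -0.27 for NCL, -0.27 for EBNA1BP2, -0.25 for BOP1 and -0.24 for NOC2L. The 4 positive differences were 0.21 for NOP2, 0.22 for WDR43, 0.40 for PPAN and 0.54 for IMP3. The adjusted p (edgeR) lay just under the threshold for BOP1 (0.0496), PPAN (0.0498), UTP20 (0.0468), NOP2 (0.0454) and NOC2L (0.0449).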

How the results depend on the processing

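Length-scaled counts moved the most counts of called members: higher and lower became 1 and 18 for 30 nM at 4 h against Neg1, 2 and 14 at 2 h against Neg1, 0 and 4 for 10 nM, 1 and 6 for 100 over 30 nM, and 2 and 9 for the difference over time, with 1 higher at 4 h against DMSO, 2 higher for 30 nM at 2 h against DMSO and 0 lower for 30 over 10 nM. Without the filter the higher counts were 1 at 4 h against DMSO, 3 for 30 nM at 2 h against DMSO, 1 for 100 over 30 nM and 2 for the difference over time, and 6 were lower for 30 over 10 nM. Protein-coding transcripts only gave 3 higher against Neg2 at 4 h and 8 at 2 h. Only the groups compared gave 2 higher against Neg2 at 4 h, 4 higher for 10 nM, 1 higher and 7 lower for 100 over 30 nM, and 1 lower for Neg2 against DMSO. The replicate block gave 3 lower for 30 over 10 nM, and DESeq2 6. Without both libraries that stood apart, 2 were higher against Neg2 at 2 h, 3 for 30 nM against DMSO, 6 lower for 30 over 10 nM, and 0 higher and 6 lower for 100 over 30 nM. CANNTG in place of CACGTG was in 75% of promoters.

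Among called members, directions turned for IMP4 at 4 h. With length-scaled counts it went to 0.21 against DMSO, 0.15 against Neg1 and 0.12 against Neg2. With protein-coding transcripts only it went to 0.047, 0.029 and 0.032. With length-scaled counts they also turned for UTP15 against Neg1 at 4 h (0.053), UTP6 against Neg1 at 2 h (0.080), UTP23 against Neg2 at 2 h (-0.0067) and RRP12 at 4 h over 2 h (0.021). As group means, protein-coding transcripts made up 82.8% of IMP4's counts after 30 nM CDK-TCIP1 for 4 h. At 4 h they made up 72.55% in DMSO, 72.9% in Neg1 and 70.6% in Neg2. The cause of the turns was not tested.

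Leaving out single libraries gave 1 to 2 higher and 33 to 35 lower against DMSO at 4 h, 1 to 3 and 20 to 28 against Neg1, and 1 and 21 to 28 against Neg2. At 2 h it gave 2 to 6 and 11 to 22 against Neg1, 1 to 6 and 17 to 22 against Neg2, and against DMSO 1 and 4 to 7 at 10 nM, 2 to 5 and 24 to 25 at 30 nM, and 5 to 8 and 26 to 31 at 100 nM. It gave 0 and 0 to 2 for 30 over 10 nM, 0 to 2 and 6 to 13 for 100 over 30 nM, 5 to 6 and 26 to 30 for 4 h over 2 h, and 1 to 5 and 12 to 21 for the difference over time. Deviations from group means correlated at -0.044 to 0.044 over 78 same-numbered pairs of libraries and at -0.059 to 0.059 over 155 pairs with different numbers. Of the 3 libraries of 30 nM at 4 h, 2 correlated best with the DMSO library of their number. In groups of 2 the deviations mirror each other, so these values cannot settle whether replicate numbers mark a shared batch. Of the 37 members called at 4 h against DMSO, 27 kept their call in all 14 alternatives. Shared pseudogene reads and 27 members with a gene on the opposite strand limit single values.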
